A study of Homo sapiens with 14 samples.

Results

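EGR1, EGR2, EGR3, EGR4, ARC, NR4A1, NR4A2, NR4A3, IER2 and IER3 are immediate early genes, that is, genes whose transcription is switched on within minutes of a signal without new protein synthesis. They were taken by symbol, 10 of the 59250 gene symbols in the count table, and all 10 symbols were present once. The series measured messenger RNA of human cells, NUGC4 (from a gastric cancer) and HepG2 (from a liver cancer), in 14 samples of 6 groups, to ask what loss of ARID1A and gain of beta-catenin (the product of CTNNB1) do to gene expression. ARID1A is a DNA-binding subunit gene of BAF, a complex that slides and evicts nucleosomes. Levels are given as CPM, a gene's counts scaled to the total of its library.

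The unmodified NUGC4 cells (wild type) gave 4 libraries. The ARID1A knockout was made by CRISPR-Cas9 transfection and grown from single cells, and 1 library, knockout replicate 1, stands for it here and may hold a single clone. In CRISPR interference (CRISPRi) cells a dead Cas9 carrying a repressor is guided to a promoter, and these cells, with 1 guide named sgRNA1 against ARID1A, gave 2 libraries. Their vector control gave 1 library matched by name, and another vector sample named in the labels was not analysed here. HepG2 cells received an EF1α-driven lentiviral FLAG-CTNNB1(ΔEx3)-GFP, a beta-catenin without the exon that holds its degradation signal, or an empty vector, with 2 libraries each. The labels give 1 serum-containing medium for all cells and name no starvation or stimulation. Whether replicate libraries stem from separate cultures is not stated, and p-values then reflect only how far these libraries spread, which may be technical.

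All 10 genes are protein-coding in RefSeq (GRCh38.p14). EGR1 is at chromosome 5, 138465479 to 138469303, on the plus strand. NR4A1 is at chromosome 12, 52022832 to 52059503, NR4A3 at chromosome 9, 99821885 to 99866891, and IER2 at chromosome 19, 13150411 to 13154911, all on the plus strand. EGR2 is at chromosome 10, 62811996 to 62819167, EGR4 at chromosome 2, 73290929 to 73293548, NR4A2 at chromosome 2, 156324437 to 156332721, and IER3 at chromosome 6, 30743199 to 30744547, all on the minus strand. EGR3 and ARC are on chromosome 8. Their joined exons are 1356 bases (IER3) to 7295 bases (NR4A1) long in GENCODE 29. An annotated gene on the opposite strand overlaps EGR3, NR4A1, IER2 and IER3, and since no strand setting is given in the sources used here, reads of such pairs cannot be told apart. Of these partners only IER3-AS1 has a row under its name, at a mean of 15.4 counts.

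Growth factors, stress and adhesion reach these genes through the ERK kinase cascade and calcium or cyclic AMP signals. ERK phosphorylates ternary complex factors such as ELK1, which sit with SRF on the CArG box of a promoter, while CREB binds the cyclic AMP response element, whose core half-site reads TGACG. EGR1 to EGR4 are zinc finger transcription factors, held in check by the corepressors NAB1 and NAB2. The NR4A genes encode orphan nuclear receptors that act without a known natural ligand. ARC encodes a cytoskeleton-associated protein of synapses that descends from a retrotransposon Gag, IER2 a nuclear regulator, and IER3 a stress-induced protein that affects cell survival.

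The promoters of 5 members are shown because their windows hold a CArG box or TGACG, elements through which serum and cyclic AMP signals act. Each run is the 250 bases before a RefSeq transcript start (GRCh38.p14), 5′ to 3′ on the gene's strand, and capitals mark a CArG box or TGACG on either strand (CGTCA on the other). EGR1 spans chr5:138465229-138465478 (plus), EGR2 chr10:62816367-62816616 (minus), EGR4 chr2:73293549-73293798 (minus), NR4A3 chr9:99821635-99821884 (plus) and IER2 chr19:13150161-13150410 (plus).
EGR1: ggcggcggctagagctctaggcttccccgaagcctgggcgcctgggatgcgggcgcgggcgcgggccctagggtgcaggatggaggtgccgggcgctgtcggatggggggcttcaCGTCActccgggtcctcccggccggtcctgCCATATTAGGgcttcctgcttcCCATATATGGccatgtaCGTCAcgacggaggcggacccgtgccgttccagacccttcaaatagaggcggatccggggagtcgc
EGR2: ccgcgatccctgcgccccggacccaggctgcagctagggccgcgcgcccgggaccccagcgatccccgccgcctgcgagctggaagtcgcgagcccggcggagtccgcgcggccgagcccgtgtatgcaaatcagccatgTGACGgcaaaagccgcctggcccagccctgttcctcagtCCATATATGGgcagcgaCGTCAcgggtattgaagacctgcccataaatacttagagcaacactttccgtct
EGR4: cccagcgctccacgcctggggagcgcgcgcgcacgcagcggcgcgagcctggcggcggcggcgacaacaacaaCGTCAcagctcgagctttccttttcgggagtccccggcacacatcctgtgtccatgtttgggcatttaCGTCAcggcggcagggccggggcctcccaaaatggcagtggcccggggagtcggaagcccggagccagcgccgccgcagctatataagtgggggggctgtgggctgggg
NR4A3: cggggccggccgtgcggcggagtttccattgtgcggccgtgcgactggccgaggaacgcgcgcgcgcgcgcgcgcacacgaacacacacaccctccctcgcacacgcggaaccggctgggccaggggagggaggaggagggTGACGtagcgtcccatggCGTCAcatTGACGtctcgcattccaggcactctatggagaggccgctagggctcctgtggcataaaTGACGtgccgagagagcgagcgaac
IER2: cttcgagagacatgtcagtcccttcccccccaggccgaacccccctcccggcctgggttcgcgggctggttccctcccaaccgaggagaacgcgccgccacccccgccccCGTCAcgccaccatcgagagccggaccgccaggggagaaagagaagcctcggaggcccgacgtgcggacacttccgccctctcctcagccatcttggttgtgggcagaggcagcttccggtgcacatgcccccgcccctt

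EGR1 holds 2 CArG boxes, which end 96 and 74 bases before the start, with a TGACG match on either side of the pair. EGR2 holds 1 CArG box, which ends 62 bases before this start, again between a pair of TGACG matches. EGR4 holds 2 TGACG matches, NR4A3 holds 4 and IER2 holds 1, and none of these 3 windows holds a CArG box. The other 2 RefSeq starts of EGR2 and both of NR4A1 have neither motif in the same 250 bases. Over all 34943 windows of this length 1.16% hold a CArG box and 0.0315% hold 2 or more, while 21.2% hold TGACG and 4.73% hold 2 or more. In all 6 of the 10 genes had a window in the table, and EGR3, ARC, NR4A2 and IER3 are named only. A match describes letters and shows no binding.

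Before the results, 3 features of the libraries have to be set out. ARID1A stood at 118 to 137 CPM in wild type, 34.3 in knockout replicate 1, 140 in the vector library and 57.6 and 53.5 in the sgRNA1 libraries, but at 141 in the library labelled knockout replicate 2, which goes against that label. That library is left out of the comparisons, except in an alternative that groups libraries as labelled, and its values are given on their own. The NUGC4 libraries also fall into 2 kinds: wild type and knockout replicate 1 held 6.30 to 11.7% ribosomal RNA, against 0.162 to 0.177% in the vector, the sgRNA1 and the library labelled knockout replicate 2, and mitochondrial genes took 0.832 to 2.50% against 7.96 to 8.23%. Knockout replicate 1 against wild type and sgRNA1 against vector are therefore comparisons within a kind, whereas vector or sgRNA1 against wild type crosses kinds. Within its kind, knockout replicate 1 held less ribosomal RNA (6.30%) than any wild-type library (8.04 to 11.7%). Its mitochondrial share was also the lowest, at 0.832% against 0.985 to 2.50%. Transcripts of ZNF10 and ZIM3, whose KRAB domains are used as CRISPRi repressors, differed between vector (ZNF10 at 23.4 CPM, ZIM3 at 0) and sgRNA1 (ZNF10 at 0.0614 and 0, ZIM3 at 26.1 and 28.2), so a difference of construct cannot be told apart from the guide. Wild type held at most 0.208 CPM of ZNF10 and knockout replicate 1 held 0, but the library labelled knockout replicate 2 held 19.9 CPM. A NUGC4 library held 9167761 to 17668394 counts in all and a HepG2 library 13138681 to 23914120. Of 10 gastric epithelial markers 7 averaged at least 1 CPM in NUGC4 (TFF2 was at 0, KRT20 and TFF1 below 1), all 10 hepatocyte markers did in HepG2, and CTNNB1 was higher in the HepG2 cells that carry it by 2.02 ± 0.06 on the log2 scale (SE; edgeR, adjusted p = 1.2e-18). In bulk RNA, fewer cells using a gene and less RNA per cell cannot be told apart.

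In unmodified NUGC4, IER2 and EGR1 led the set, IER3 and NR4A1 came next, and the other 6 genes were low. Per kilobase of exon, the scale on which genes can be compared, IER2 averaged 23.1 ± 2.59 CPM per kb and EGR1 22.1 ± 1.14 (SD, n = 4), and their libraries overlapped. IER3 stood at 9.23 CPM per kb and NR4A1 at 7.14, then EGR3 at 1.5. NR4A2 at 0.870, EGR4 at 0.864 and NR4A3 at 0.825 CPM per kb did not separate, and ARC at 0.577 and EGR2 at 0.462 also overlapped each other. In the vector library the order changed: EGR1 led at 261 CPM per kb, IER2 was at 127, IER3 at 85.8, NR4A1 at 52.9 and ARC, near the bottom in wild type, at 20.5. NR4A3 came last there at 0.485 CPM per kb. In the HepG2 vector libraries IER3 led at 95.3 CPM per kb and IER2 followed at 16.5, while EGR1 at 1.69 and NR4A1 at 0.899 were low and the other 6 genes were below 0.1 CPM per kb.

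**Figure D1:**
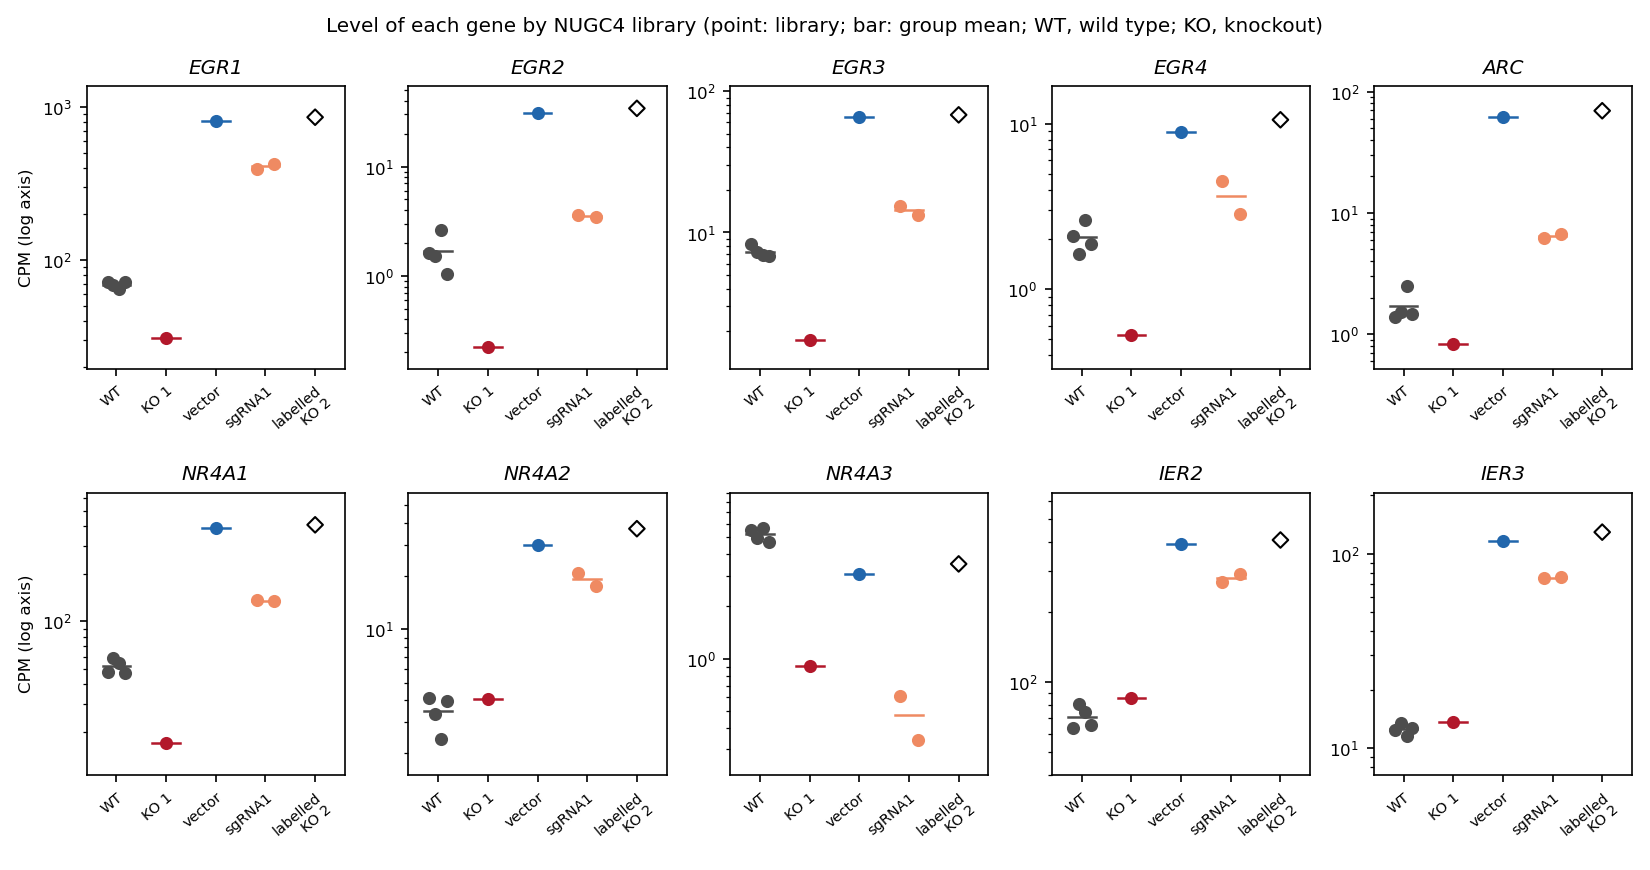
Level of each gene in CPM (log axis, a separate scale per gene) in the NUGC4 libraries, 1 point per library with a bar at the group mean, and an open diamond for the library labelled knockout replicate 2. That library and the vector lie together above wild type for every gene except NR4A3, and knockout replicate 1 lies below wild type for EGR1 to EGR4, ARC, NR4A1 and NR4A3.

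The vector library held far more of most of these transcripts than the wild-type libraries, in a comparison that crosses the library kinds. EGR1 was at 72.1, 68.7, 64.6 and 72.1 CPM in the wild-type libraries and at 818 in the vector library. Wild-type ARC was at 1.40, 1.54, 2.51 and 1.46 CPM, on 14 to 23 counts a library, against 61.4 in the vector. Every wild-type library lay below the vector for both genes, 11.8-fold in the mean for EGR1 and 35.6-fold for ARC. In edgeR's quasi-likelihood test, Benjamini-Hochberg adjusted over all genes and fitted on 8 NUGC4 libraries, these were log2 fold changes of 3.64 ± 0.09 (SE, adjusted p = 1.1e-14) and 5.25 ± 0.20 (adjusted p = 1.1e-12).

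Of the 10 genes 9 were called higher in the vector and none lower, where 23.5% of the 18913 genes tested were called higher and 20.7% lower. Besides EGR1 and ARC, EGR2 rose by 4.27 ± 0.24, IER3 by 3.29 ± 0.11, EGR3 by 3.24 ± 0.15 and NR4A2 by 3.17 ± 0.20 on the log2 scale. NR4A1 rose by 2.97 ± 0.11, IER2 by 2.55 ± 0.11 and EGR4 by 2.20 ± 0.29, the largest adjusted p of the 9 being 9.1e-06 in edgeR. NR4A3 was the exception, at 5.51, 4.97, 5.67 and 4.69 CPM in wild type and 3.06 in the vector. It lay below every wild-type library but missed the threshold, at −0.69 ± 0.32 (edgeR, adjusted p = 0.088). The median of the 10 changes was 3.20 and that of all genes −0.024. This comparison crosses the library kinds: tested genes with exons under 1500 bases had a median of −0.47, those from 1500 to under 3000 bases 0.41, those from 3000 to under 6000 bases 0.21 and longer ones −0.10 (81.1% of tested genes had a length). Construct, culture and library kind cannot be told apart here, and the vector is 1 library, whose own spread is taken from the replicated groups.

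**Figure D2:**
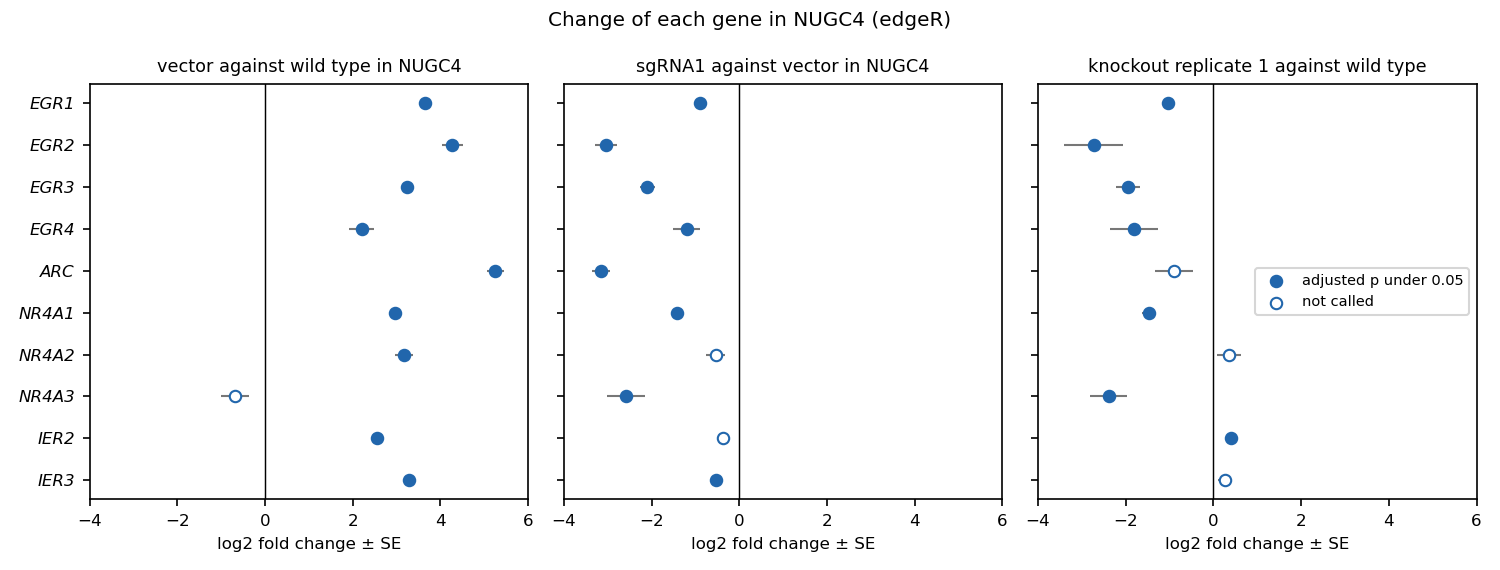
Fitted log2 fold change with its standard error for each gene in vector against wild type, sgRNA1 against vector and knockout replicate 1 against wild type, filled where the edgeR adjusted p is under 0.05. All but NR4A3 are higher in the vector, 8 genes are called lower under sgRNA1, and 6 are called lower in knockout replicate 1.

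With ARID1A lowered by CRISPRi, all 4 EGR genes, ARC, NR4A1, NR4A3 and IER3 were lower than in the vector control. For EGR2 the vector library held 31.1 CPM and the sgRNA1 libraries 3.62 and 3.45. EGR3 stood at 65.7 CPM against 15.3 and 13.4. ARC went from 61.4 CPM to 6.26 and 6.68. The sgRNA1 libraries lay close to each other and well below the vector for these 3 genes, 8.79-fold, 4.58-fold and 9.49-fold in the mean. EGR1, the most abundant EGR gene, was at 818 CPM against 396 and 427, a smaller fold of 1.99. NR4A1 was at 386 CPM against 136 and 134.

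In edgeR with Benjamini-Hochberg adjustment 8 of the 10 were called lower and none higher, where 4.11% of the 18913 genes tested were called lower and 4.62% higher. ARC fell by 3.15 ± 0.21 (edgeR, adjusted p = 2.2e-08), EGR2 by 3.04 ± 0.26 (5.5e-07), EGR3 by 2.10 ± 0.17 (1.8e-07), NR4A1 by 1.42 ± 0.13 (7.9e-07) and EGR1 by 0.90 ± 0.11 (4.3e-05) on the log2 scale. NR4A3 rested on few counts, 49 in the vector library and 10 and 6 in the sgRNA1 libraries, or 3.06 against 0.614 and 0.340 CPM. It fell by 2.58 ± 0.43 (edgeR, adjusted p = 6e-04). EGR4, at 8.94 CPM against 4.48 and 2.83, fell by 1.20 ± 0.31 (edgeR, adjusted p = 0.021), a call lost without sgRNA1 replicate 2 (0.23) and in the DESeq2 Wald test (0.12). IER3, at 116 CPM against 74.9 and 75.7, fell by 0.53 ± 0.13 (edgeR, adjusted p = 0.012), a call lost without sgRNA1 replicate 1 or 2 (0.11 and 0.081).

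NR4A2 and IER2 also lay below the vector in both sgRNA1 libraries but did not pass. NR4A2 was at 29.9 CPM against 20.8 and 17.6, a change of −0.54 ± 0.21 (edgeR, adjusted p = 0.12). IER2 was at 391 CPM against 269 and 292, a change of −0.38 ± 0.13 (edgeR, adjusted p = 0.079). Both were called lower without wild-type replicate 3 in the fit (edgeR, adjusted p of 0.046 and 0.032) and in a fit of the 3 vector and sgRNA1 libraries alone (0.00022 and 6.3e-06). The median of the 10 changes was −1.31 and that of all genes 0.001. ARID1A itself fell by 1.24 ± 0.12 in this comparison (edgeR, adjusted p = 3.3e-06).

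Lower than in the vector library did not mean as low as in the wild-type libraries. In sgRNA1 against wild type, which crosses the library kinds, 9 of the 10 were called higher and NR4A3 lower, where 32.9% of genes were called higher and 33.6% lower (edgeR). EGR1 at 396 and 427 CPM still exceeded the 64.6 to 72.1 CPM of wild type, 5.93-fold in the mean. EGR2 at 3.62 and 3.45 CPM exceeded the wild-type range of 1.04 to 2.62, and EGR3 at 15.3 and 13.4 exceeded 6.77 to 8.23, or 2.07-fold and 1.97-fold in the mean. EGR4 was at 1.00 ± 0.27 on the log2 scale (edgeR, adjusted p = 0.0034), a call lost without sgRNA1 replicate 1 (0.12). NR4A3 went the other way, 10.9-fold lower in the mean than in wild type and at −3.27 ± 0.33 on the log2 scale (edgeR, adjusted p = 1.2e-07).

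In knockout replicate 1, compared with wild type within the same library kind, the EGR genes, NR4A1 and NR4A3 were again low. EGR1 was at 31.2 CPM, against 64.6 to 72.1 in the 4 wild-type libraries. NR4A1 was at 17.0 CPM, against 47.6, 59.0, 54.7 and 47.2. EGR3 was at 1.73 CPM, against 8.23, 7.22, 6.98 and 6.77. For these 3 genes the knockout library lay below every wild-type library, 2.23-fold, 3.06-fold and 4.22-fold in the mean. NR4A3 was at 0.904 CPM on 12 counts, against 4.69 to 5.67 CPM on 45 to 71 counts. EGR4 was at 0.527 CPM on 7 counts, against 2.10, 1.63, 2.62 and 1.87. EGR2 had 3 counts in knockout replicate 1 and 72 over the wild-type libraries, a ratio of 0.134 with a 95% counting interval of 0.027 to 0.408 that covers counting error only.

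The edgeR test called 6 of the 10 lower and 1 higher, where 18.7% of the 18913 genes tested were called lower and 19.5% higher. NR4A1 fell by 1.48 ± 0.15 (edgeR, adjusted p = 4.4e-07), EGR1 by 1.03 ± 0.12 (3.6e-06), EGR3 by 1.95 ± 0.28 (2.6e-05), NR4A3 by 2.39 ± 0.42 (0.00018), EGR2 by 2.73 ± 0.67 (0.0035) and EGR4 by 1.81 ± 0.54 (0.013) on the log2 scale. ARC, at 0.828 CPM on 11 counts, lay below every wild-type library, but its change of −0.90 ± 0.44 did not pass (edgeR, adjusted p = 0.12). The stress gene IER3 was at 13.7 CPM against 12.4, 13.5, 11.6 and 12.7, just above the highest, and NR4A2 at 4.07 CPM lay within the wild-type range of 2.40 to 4.12. Neither was called, at 0.26 ± 0.15 and 0.35 ± 0.28 (edgeR, adjusted p of 0.19 and 0.35). IER2 was the gene called higher, at 85.2 CPM against 63.4, 80.2, 74.6 and 65.1, a rise of 0.40 ± 0.12 (edgeR, adjusted p = 0.017). The median of the 10 changes was −1.25 and that of all genes −0.073. Tested genes with exons under 1500 bases had a median of −0.30, and those from 1500 to under 3000 bases 0.12. Those from 3000 to under 6000 bases had 0.06 and longer ones −0.03. ARID1A fell by 1.74 ± 0.14 (edgeR, adjusted p = 1.5e-08). The knockout is 1 library, with its spread likewise taken from the replicated groups. With the library labelled knockout replicate 2 added, as the labels group them, 6 members were called higher and none lower, where 13.5% and 9.78% of genes were, and EGR1 stood at 2.79 and NR4A1 at 2.14 (edgeR, adjusted p of 0.039 and 0.077).

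EGR1, EGR2, EGR3, EGR4, NR4A1 and NR4A3 were thus called lower in both comparisons with lower ARID1A. Of all genes 18.7% were called lower in the knockout and 4.11% under sgRNA1, and the share called lower in both was not counted. The comparisons share no library but come from the same fit with a shared spread. The vector and sgRNA1 libraries also differ in construct. The difference between the effects, knockout minus wild type less sgRNA1 minus vector, was −0.13 ± 0.17 for EGR1 and −0.06 ± 0.20 for NR4A1, neither past the threshold (edgeR, adjusted p of 0.70 and 0.90). For EGR3 it was 0.15 ± 0.37, for NR4A3 0.19 ± 0.61, for EGR4 −0.61 ± 0.65 and for EGR2 0.31 ± 1.10, so the low counts leave wide room there. ARC, IER2 and IER3 did differ, where 5% of genes were called higher and 4.02% lower in this difference. ARC fell less in the knockout, by 2.25 ± 0.58 on the log2 scale (edgeR, adjusted p = 0.019). IER2 differed by 0.78 ± 0.18 and IER3 by 0.79 ± 0.20 (edgeR, adjusted p of 0.010 and 0.017). IER2 was called in the knockout (higher) and not under sgRNA1, and IER3 under sgRNA1 (lower) and not in the knockout. All 3 calls were lost without sgRNA1 replicate 1 (0.051, 0.070 and 0.072), and that of IER3 also without sgRNA1 replicate 2 (0.053). NR4A2 differed by 0.89 ± 0.35 and did not pass (edgeR, adjusted p = 0.13).

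The other immediate early genes were mostly called higher in the knockout. Of 36 listed genes of the FOS, JUN, DUSP, KLF, CCN and related families, 21 were called higher and 3 lower in knockout replicate 1 (58.3% and 8.33%, beside 19.5% and 18.7% of all genes), with a median of 0.82, while the 10 EGR, NR4A, ARC and IER genes had a median of −1.25. MAFF, a small Maf transcription factor gene, rose by 2.31 ± 0.12 (edgeR, adjusted p = 1e-10), from 17.6, 22.1, 22.1 and 19.6 CPM in wild type to 92.1. DUSP5, which encodes a nuclear ERK phosphatase, rose by 3.18 ± 0.17 (edgeR, adjusted p = 1.1e-10), from 5.75, 3.70, 6.65 and 5.93 CPM to 45.3. Both lay above every wild-type library.

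Under sgRNA1 16 of the 36 genes were called lower, 2 higher and 18 were not called, with a median of −0.42 beside −1.31 for the members, where 4.11% of all genes were called lower and 4.62% higher. FOSB, a partner of JUN in AP-1, fell by 2.18 ± 0.19 (edgeR, adjusted p = 4.2e-07), from 68.6 CPM to 15.4 and 13.0. CCN2, a matricellular growth factor gene, fell by 1.98 ± 0.15 (edgeR, adjusted p = 1.3e-07), from 111 CPM to 23.8 and 28.6. In vector against wild type, which crosses the library kinds, 34 of the 36 were called higher and 1 lower. That was 94.4% and 2.78%, beside 23.5% and 20.7% of all genes. The changes ran from −0.62 to 4.29 with a median of 2.12. The smallest adjusted p was that of FOS at 3.57 ± 0.10 and DUSP1 at 3.53 ± 0.10 (edgeR, 1.9e-14 for each), while the largest rise was that of FOSL1 (4.29). The difference between the knockout and sgRNA1 effects was called higher for 22 of the 36 (61.1%) and lower for none, beside 5% and 4.02% of all genes. FOSB gave 3.44 ± 0.30 and MAFF 2.21 ± 0.19 in it (edgeR, adjusted p of 1e-06 and 9.9e-07).

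**Figure D3:**
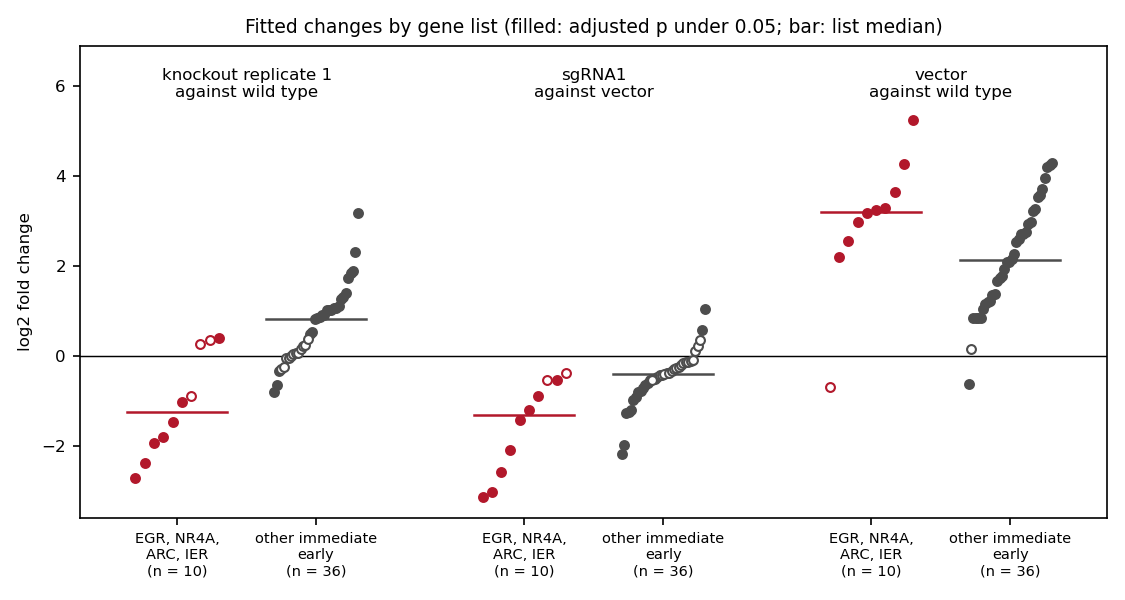
Fitted log2 fold change (y axis) of the 10 EGR, NR4A, ARC and IER genes (red) and of 36 other immediate early genes (grey), sorted within each list, in 3 comparisons, with filled points at an edgeR adjusted p under 0.05 and a bar at the list median. In knockout replicate 1 the medians are −1.25 and 0.82, under sgRNA1 −1.31 and −0.42, and in the vector 3.20 and 2.12.

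Kinases and adaptors of the ERK cascade, from the receptors to the ribosomal S6 kinases, were more often called higher than lower in the knockout. Of 22 genes 11 were called higher and 2 lower in knockout replicate 1, or 50% and 9.09% where 19.5% and 18.7% of all genes were. Under sgRNA1 3 were called higher and 2 lower (13.6% and 9.09%, beside 4.62% and 4.11% of all genes). In vector against wild type 8 were called higher and 6 lower (36.4% and 27.3%, beside 23.5% and 20.7%). In the knockout the S6 kinase gene RPS6KA1 rose by 1.05 ± 0.11 and the receptor gene ERBB2 fell by 1.09 ± 0.12 (edgeR, adjusted p of 7.5e-07 and 1.7e-06). Under sgRNA1 a pair of MSK kinase genes moved apart, RPS6KA5 down by 1.08 ± 0.16 and RPS6KA4 up by 0.74 ± 0.12 (edgeR, adjusted p of 2e-04 and 0.00071).

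Many ERK feedback inhibitors are themselves transcribed when ERK is active. The 12 genes listed under this name are DUSP, SPRY and SPRED genes and ERRFI1, and not each of them need be such a target. Of these 7 were called higher and 3 lower in knockout replicate 1 (58.3% and 25%, beside the same 19.5% and 18.7%). Under sgRNA1 the counts were 1 and 2 (8.33% and 16.7%, beside 4.62% and 4.11%), and in the vector 6 and 1 (50% and 8.33%, beside 23.5% and 20.7%). DUSP6, a cytoplasmic ERK phosphatase gene, stood at 22.8, 18.5, 15.7 and 19.8 CPM in wild type and 54.4 in the knockout, a rise of 1.62 ± 0.15 (edgeR, adjusted p = 1.2e-07). SPRY4, which encodes a Sprouty inhibitor of receptor signalling, rose by 1.52 ± 0.13 there (edgeR, adjusted p = 4.5e-08). SPRY4 also rose under sgRNA1, by 0.65 ± 0.15 (edgeR, adjusted p = 0.0074), from 63.5 CPM to 95.6 and 90.9. It was the only listed gene called higher there. DUSP8 was 1 of the 2 called lower, at −0.57 ± 0.14 (edgeR, adjusted p = 0.017), and the list median was −0.13. Against wild type, the vector held more DUSP6 and SPRY4, by 2.36 ± 0.14 and 1.64 ± 0.13 (edgeR, adjusted p of 3.1e-10 and 9.8e-09).

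Of 15 genes for SRF, ternary complex factors, MRTFs and CREB regulators, which act on such promoters, 2 passed as higher and 2 as lower in the knockout, or 13.3% each where 19.5% and 18.7% of all genes did. Under sgRNA1 none passed as higher and 1 as lower (6.67%), beside 4.62% and 4.11% of all genes. In the vector 4 passed as higher and 4 as lower, or 26.7% each, near the 23.5% and 20.7% of all genes. The gene called under sgRNA1 was SRF, at 91.6 CPM in the vector and 62.2 and 59.0 in the sgRNA1 libraries, a fall of 0.50 ± 0.13 (edgeR, adjusted p = 0.020). In the vector SRF and ELK1 exceeded wild type by 1.22 ± 0.12 and 1.02 ± 0.14 (edgeR, adjusted p of 1.4e-07 and 1.4e-05). In the knockout the CREB coactivator gene CRTC1 fell by 1.02 ± 0.16 and its relative CRTC3 rose by 0.80 ± 0.19 (edgeR, adjusted p of 6.3e-05 and 0.0026).

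Among the EGR corepressors and NR4A partners, 4 of 5 listed genes could be tested in NUGC4 (RXRG did not pass the filter on low counts). NAB2, an EGR corepressor gene that EGR1 itself induces, was at 36.2, 38.5, 43.4 and 40.8 CPM in wild type and 18.5 in knockout replicate 1, below all 4. It fell by 0.97 ± 0.15 (edgeR, adjusted p = 6.2e-05), 1 of 2 cofactor genes called lower there (50%) and none higher. Of all genes 18.7% were called lower and 19.5% higher in that comparison. Under sgRNA1 it stood at 37.1 and 37.0 CPM against 52.7 in the vector, a change of −0.41 ± 0.14 that did not pass (edgeR, adjusted p = 0.084), and none of the 4 was called in either direction. In the vector NAB2 was higher than in wild type by 0.49 ± 0.13 and NAB1 lower by 0.61 ± 0.19 (edgeR, adjusted p of 0.0050 and 0.013).

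For 3 of the members the protein-coding genes with the most similar pattern over the 12 libraries were found by the root mean square difference of log2 CPM, each gene centred on its own mean, among 11031 genes that average at least 5 CPM. Both cell lines enter this measure, so the step from NUGC4 to HepG2 weighs heavily in it. EGR1 lay nearest to NR4A2 (0.60), ARC (0.67) and PHLDA2 (0.72), where the median gene lay at 2.53. NR4A1 lay nearest to CSRNP1 (0.57), ELF3 (0.61) and CAMKK1 (0.61), with a median gene at 1.93. IER3 lay nearest to NDUFB9 (0.37), CSTB (0.39) and LSM7 (0.41), with a median gene at 1.54, and its distance from EGR1 was 3.07. The IER3 pattern was low in wild type and knockout replicate 1 and high in the other NUGC4 and the HepG2 libraries. It was thus unlike that of EGR1 and NR4A1, which were low in HepG2. Within NUGC4 this split is also that of the library kinds. NDUFB9 was at 13.31 to 15.35 CPM in wild type, 19.8 in knockout replicate 1 and 113.4 in the vector library. LSM7 was at 4.254 to 8.537, 7.755 and 44.28 CPM. Whether library kind sets the IER3 level was not tested.

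In HepG2 only 4 of the 10 genes passed the filter on low counts, and stabilised beta-catenin went with less IER3 and IER2. IER3 stood at 134 and 124 CPM in the vector libraries and 54.3 and 57.8 in the CTNNB1 libraries. IER2 stood at 54.0 and 47.5 CPM against 37.3 and 36.5. The groups did not overlap for either gene, and the lower level was 2.31-fold and 1.37-fold down in the mean. IER3 fell by 1.20 ± 0.07 and IER2 by 0.45 ± 0.08 on the log2 scale (edgeR, adjusted p of 3.8e-13 and 0.00014), where 11.4% of the 15703 genes tested were called lower and 12.8% higher.

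EGR1 was at 5.63 and 4.98 CPM in the HepG2 vector libraries and 4.32 and 4.64 in the CTNNB1 libraries, so its groups did not overlap either. Its change of −0.22 ± 0.17 did not pass (edgeR, adjusted p = 0.37). NR4A1 was at 6.62 and 6.50 CPM against 6.65 and 6.06, overlapping groups, with a change of −0.04 ± 0.15 (edgeR, adjusted p = 0.88). The other 6 genes had at most 5 counts in any HepG2 library and were not tested. EGR3 had no count in any of them, which allows up to 0.0931 CPM in the vector group and 0.0681 CPM in the CTNNB1 group (3 counts over the group).

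**Figure D4:**
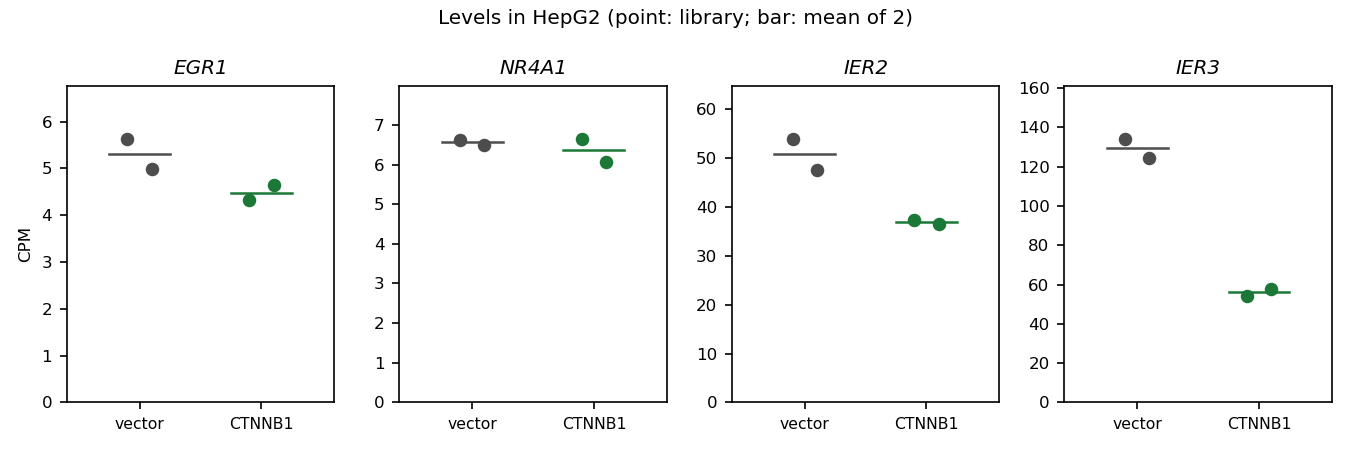
CPM (linear axis from 0) of the 4 genes that could be tested in HepG2, 1 point per library with a bar at the mean of 2 libraries. IER3, IER2 and EGR1 separate the CTNNB1 libraries from the vector libraries, whereas NR4A1 overlaps. The EGR1 difference was not called by the test.

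Other immediate early genes also changed in HepG2. Of 36 other immediate early genes 33 were tested in HepG2, and 3 were called higher and 12 lower. That was 9.09% and 36.4%, beside 12.8% and 11.4% of all genes tested. Their median was −0.16, while that of all genes was 0.004. JUN, the core AP-1 gene, fell by 0.85 ± 0.09 (edgeR, adjusted p = 3.7e-08), from 53.4 and 47.3 CPM to 25.8 and 29.6, and CCN2 fell by 0.85 ± 0.06 (edgeR, adjusted p = 1.7e-11). Of 11 genes tested that were listed as ERK feedback inhibitors, 1 was called higher and 7 lower (9.09% and 63.6%). SPRY4 fell by 0.91 ± 0.07, from 80.3 and 79.9 CPM to 41.0 and 44.1, and ERRFI1, an inhibitor of the EGF receptor, by 0.63 ± 0.06 (edgeR, adjusted p of 2.3e-10 and 4.6e-09). ERK cascade kinases gave 4 higher and 1 lower of 22 (18.2% and 4.55%, beside the same 12.8% and 11.4%). Of the 15 SRF, ternary complex factor, MRTF and CREB regulator genes 5 were called higher and 1 lower (33.3% and 6.67%). The gene called lower was SRF, at −0.39 ± 0.07 (edgeR, adjusted p = 0.00024). Of 4 cofactor genes tested 2 were called higher and 1 lower (50% and 25%), with the corepressor gene NAB1 at 0.54 ± 0.10 (edgeR, adjusted p = 0.00013).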

How the data were processed

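The deposited values were raw counts, whole reads per gene symbol in 1 table by the authors of 59250 symbols and 14 columns. Per the labels' protocols, poly(A) RNA was captured from TRIzol extracts and sequenced as read pairs. The histone gene share, however, differed between the kinds of NUGC4 library. It ranged from 0.277 to 0.344% where ribosomal RNA was high (wild-type libraries, knockout replicate 1). Where ribosomal RNA was low it ranged from 0.0155 to 0.0188%. Whether both kinds were prepared by this protocol was not tested. Per the submitters' processing notes, STAR 2.7.10a and hg38 were used. How reads were counted, on which annotation and with which strand setting, is not given in the sources used here. Columns were matched to samples by name: 13 of 14 matched, and 1 that fits no sample was used in no step.

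Counts were tested in R 4.3.3 with edgeR 4.0.16 (quasi-likelihood, TMM, filterByExpr, Benjamini-Hochberg, adjusted p under 0.05) in a fit of 8 NUGC4 libraries (4 residual degrees of freedom) and one of 4 HepG2 libraries (2). The library labelled knockout replicate 2 entered only as an alternative. Alternatives were DESeq2 1.42.0 size factors and Wald test, no filter, sizes without ribosomal RNA, mitochondrial and histone genes, a block on the replicate number, a fit of the compared groups alone, and leaving out each library. Scripts were tested on simulated counts. CPM use total counts, and log2 CPM for pattern likeness a prior count of 2.

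Members and gene lists were chosen with earlier results of these data known. Named genes were all members, ARID1A and CTNNB1, the 2 genes of each list with the smallest adjusted p per comparison (a selection of these is printed), and the 3 nearest in pattern to EGR1, NR4A1 and IER3. ZNF10, ZIM3 and FOSL1 lie outside this rule and were named after their values were seen. Promoters and positions are from RefSeq (GRCh38.p14), exon lengths from GENCODE 29.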

Additional observations from a re-analysis of the deposited data

Results flagged for a closer look

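ARC in wild-type replicate 3 stood apart from the other wild-type libraries at 2.51 CPM, against 1.40 to 1.54 CPM in those. Chance sets such a library apart in about 1 of 20 groups, and all 10 genes were checked in wild type. The ARC values rest on 14 to 23 counts a library.

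In 3 genes the knockout replicate 1 effect differed from the sgRNA1 effect by a test of the difference itself in edgeR. The differences were 2.25 for ARC, 0.78 for IER2 and 0.79 for IER3 on the log2 scale.

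The library labelled knockout replicate 2, which entered the comparisons only in an alternative, held 9 of the 10 genes above every wild-type library. This crosses the library kinds, and the share of all genes lying above wild type in it was not counted. In vector against wild type, which crosses the same kinds, 23.5% of genes were called higher. Levels in the labelled library were 862 CPM for EGR1, 34.0 for EGR2, 67.9 for EGR3, 10.6 for EGR4 and 69.6 for ARC. NR4A1 was at 407 CPM, NR4A2 at 37.0, IER2 at 408 and IER3 at 129. These were 1.03 to 1.24 times the vector's levels. NR4A3, at 3.52 CPM, lay below the wild-type libraries.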

How the results depend on the processing

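With the knockout group as named, the knockout against wild type gave 6 members higher and 0 lower, with 1870 genes lower. EGR1 (2.79), EGR2 (3.44), EGR3 (2.36), EGR4 (1.55), ARC (4.47) and NR4A1 (2.14) reversed. The library that this grouping adds held ARID1A at 141 CPM, beside 140 in the vector library, which goes against its label. In that fit the spread within the knockout group is part of the error of every comparison: sgRNA1 against vector gave 0 members lower and 0 genes in either direction, vector against wild type 1480 genes higher and 1034 lower with 6 members higher in place of 9 (EGR3, EGR4 and NR4A1 lost, edgeR adjusted p of 0.06, 0.13 and 0.06), and sgRNA1 against wild type 4 members higher. The difference between the effects gave 0 members and 3 genes higher and 0 lower, with EGR1 (3.69), EGR4 (2.75) and NR4A1 (3.56) reversed.

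Fitting only the compared groups, sgRNA1 against vector gave 2184 genes higher and 1966 lower, with all 10 members called lower, NR4A2 and IER2 included (edgeR, adjusted p of 0.00022 and 6.3e-06). DESeq2's Wald test gave 1121 higher and 1071 lower in HepG2. Leaving out each library in turn, sgRNA1 against vector gave 421 to 1320 genes higher and 327 to 1098 lower, with 6 to 10 members lower. The difference gave 466 to 1374 higher and 349 to 1192 lower, with 0 to 3 members higher, and NR4A3 stood at −0.16 (without sgRNA1 replicate 2) to 0.65. HepG2 gave 1212 to 1942 higher and 1191 to 1615 lower, and NR4A1 stood at −0.1 to 0.03, the latter without CTNNB1 replicate 2. The lowest sgRNA1 and difference counts came without sgRNA1 replicate 1 or 2, the highest without wild-type replicate 3, and the lowest HepG2 counts without vector replicate 1. Knockout replicate 1 and the vector, 1 library each, cannot be left out, and the difference needs all groups. The cause of these moves was not tested.

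Same-numbered libraries did not deviate together (correlations of 0.044 and 0.019 between wild type and sgRNA1 and −0.084 in HepG2). The NUGC4 check crosses the library kinds, and with 2 libraries a group both HepG2 replicates give the same value. These values therefore show no sign of pairing by number but cannot exclude it. With the replicate block, sgRNA1 against vector gave 2251 genes higher and 1698 lower, and the difference 2149 and 1856, with EGR3 (−0.12), NR4A1 (0.01) and NR4A3 (−0.12) reversed. Of the members' calls the block changed that of IER2 under sgRNA1, from not called to lower (edgeR, adjusted p = 3.1e-09, on 1 residual degree of freedom). Scaling by DESeq2 size factors, and sizes without ribosomal RNA, mitochondrial and histone genes, changed no member's call in these comparisons.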
